A study of Mus musculus with 6 samples.

Results

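The cell cycle engine of the mouse yolk sac was followed here through its cyclins, cyclin-dependent kinases (CDKs), CDK inhibitors and E2F transcription factors, in 3 wild-type and 3 Tnrc6a mutant libraries at embryonic day 9.5. The set holds 36 genes, listed by name; the list was drawn up with earlier results of these data known, although no measured value enters its rule. For 35 of them the deposited table held at least 1 probe set that carries that gene symbol alone, out of 19938 genes with such a probe set, and the brightest probe set by the mean over all 6 arrays stood for each gene. Ccnb1, the cyclin B of mitotic entry, had no single-symbol probe set in the annotation used and was not analysed here. The controls were wild type littermates, and the mutants were GW182gt/gt embryos, homozygous for the gt allele of Tnrc6a (a gene-trap allele in mouse nomenclature). Each genotype label ends in "mixed", a term with no explanation in the labels, and each library is the whole yolk sac of 1 embryo. In such bulk tissue, fewer cells of a type and less RNA per cell cannot be told apart.

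Tnrc6a encodes GW182, the protein that lets Argonaute recruit deadenylases to microRNA targets, and transcripts of D-type cyclins, Cdk6 and Cdc25a are among well-known microRNA targets. In G1, D-type cyclins with Cdk4 and Cdk6, and then cyclin E with Cdk2, phosphorylate Rb1 and its relatives and so release E2F factors, which switch on the genes of DNA replication. Cyclin A with Cdk2 and Cdk1, and cyclin B with Cdk1, then carry cells through S, G2 and mitosis. The yolk sac at this stage is made of visceral endoderm, mesoderm-derived endothelium and mesenchyme, and primitive erythroid cells, which divide while they mature. The comparison asks whether the transcripts of this machinery differ when Tnrc6a is disrupted.

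The promoters of 4 members are printed because they carry, in different combinations, the elements known to time cell cycle transcripts. E2f7 and E2f8 are the pair of atypical E2F genes whose genotypes did not overlap, and Rbl1 and Cdk1 stand for a pocket protein and for the mitotic kinase. Each window is the 250 bases before the start of the gene in RefSeq, build GRCm38.p6, read 5′ to 3′ on the strand of the gene. Capitals mark, on either strand, an E2F octamer (TTTCGCGC, TTTGGCGC, TTTCCCGC or TTTGCCGC), the cell cycle homology region or CHR (TTTGAA), which binds the repressor and activator complexes of late cell cycle genes, or the CCAAT box, which binds NF-Y. None of these matches overlapped another in the 4 windows.
E2f7 (chr10:110745189-110745438, plus strand): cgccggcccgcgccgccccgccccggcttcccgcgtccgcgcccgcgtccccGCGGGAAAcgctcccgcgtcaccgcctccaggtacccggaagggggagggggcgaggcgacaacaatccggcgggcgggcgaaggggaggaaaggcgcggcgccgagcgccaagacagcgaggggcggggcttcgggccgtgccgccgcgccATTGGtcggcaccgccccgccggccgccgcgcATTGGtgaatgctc
E2f8 (chr7:48881597-48881846, minus strand): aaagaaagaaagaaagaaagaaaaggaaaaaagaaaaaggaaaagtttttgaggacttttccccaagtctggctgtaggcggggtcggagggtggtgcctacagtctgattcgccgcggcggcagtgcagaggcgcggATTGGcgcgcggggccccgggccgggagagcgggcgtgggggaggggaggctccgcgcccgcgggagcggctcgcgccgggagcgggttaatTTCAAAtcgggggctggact
Rbl1 (chr2:157204535-157204784, minus strand): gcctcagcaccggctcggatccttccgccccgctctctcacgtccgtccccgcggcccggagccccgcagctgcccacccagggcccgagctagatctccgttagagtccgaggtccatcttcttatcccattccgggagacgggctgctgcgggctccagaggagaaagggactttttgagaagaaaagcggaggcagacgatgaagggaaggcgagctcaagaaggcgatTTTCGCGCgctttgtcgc
Cdk1 (chr10:69352913-69353162, minus strand): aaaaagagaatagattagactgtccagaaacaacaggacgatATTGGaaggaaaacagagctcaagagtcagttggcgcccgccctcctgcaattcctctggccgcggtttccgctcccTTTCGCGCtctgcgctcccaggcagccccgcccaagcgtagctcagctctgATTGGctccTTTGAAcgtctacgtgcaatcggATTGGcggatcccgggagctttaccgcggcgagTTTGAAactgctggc

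The E2f7 window holds 1 E2F octamer, on the opposite strand from 198 bases before the start, and CCAAT boxes at 46 and 14. The E2f8 window has no octamer but a CHR at 20 and a CCAAT box at 112 bases before the start. Rbl1 has a single octamer at 18, and Cdk1 has an octamer at 131, a CHR at 71 and at 15, and CCAAT boxes at 208, 80 and 48. RefSeq windows were listed for 27 of the 36 members, and a member with several listed starts was counted where any of its windows held the motif, which favours the members against a share of single windows. An octamer was found in 8 of these (Cdc25a, Cdk1, Cdk2, Cdkn2a, E2f3, E2f7, Rbl1 and Tfdp1), against 1.86% of all 32851 windows of this length. A CHR was found in 8 of the 27, against 16.0% of all windows, and a CCAAT box in 16, against 33.8%. These matches describe letters in a window and are not evidence of binding.

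Values are the authors' deposited log2 signals from Affymetrix Mouse Gene 1.0 ST arrays, whose medians lay between 5.19 and 5.22. With 6 arrays the precision is limited by their number. Tnrc6a itself was measured first. It read 8.40, 7.62 and 8.29 in wild types 1 to 3, 7.81 in the library labelled mutant 1, and 5.33 and 5.197 in mutants 2 and 3. The level of the library labelled mutant 1 lay within the wild-type range and goes against its label, so each comparison of genotypes that follows rests in part on a library whose label is in doubt. The log2 difference was −1.99 (SE 0.65; limma adjusted p = 0.999), and the two-sided p of an exact permutation over the 20 assignments was 0.2, the smallest possible with 3 against 3 being 0.1. Wild type 2 stood apart in markers of trophoblast, decidua and parietal endoderm, with a list median 0.68 above the wild-type mean against −0.41 and −0.27 in wild types 1 and 3. Mutant 2 shared part of this: Prl8a2, a prolactin family gene of that list, read 9.11 in mutant 2, 7.44 in wild type 2 and 3.51 to 4.09 elsewhere. Mesenchyme markers had list medians of 0.37 in wild type 2 and 0.36 in mutant 2. The defining genes of yolk sac endoderm and blood were bright, with Afp, the fetal albumin of endoderm, at 12.6 to 12.7 and Hbb-y, an embryonic globin, at 12.7 to 13.1. Of the 10 listed genes of the embryo proper, 4 passed the filter on dim probe sets. Whether same-genotype libraries come from 1 litter or several is not given. The limma p-values set each difference against the spread within genotypes among these 6 samples only, moderated over all tested probe sets.

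No member differed between genotypes past the adjusted threshold, and the differences were small. All 35 measured members passed the filter on dim probe sets. Their log2 differences, mutant minus wild type, ran from −0.31 (Cdc25b) to 0.32 (Cdk6), and 24 of the 35 lay within 0.1 of zero. They were higher in the mutants for 25 and lower for 10, with a median of 0.049, while the 16387 tested probe sets had a median of 0.0063 and 52.4% of them were higher. This split rested on single libraries. It was 17 higher and 18 lower without mutant 3 (median −0.0031) and 18 higher and 17 lower without wild type 1 (median 0.0023). It was 26 higher and 9 lower without the library labelled mutant 1 (median 0.073) or without mutant 2 (median 0.058). Without wild type 2 or wild type 3 it was 25 and 10 (medians 0.054 and 0.072). At a limma adjusted p under 0.05, 0 of 35 members were called, as were 0 of all tested probe sets (0%). At an unadjusted limma p under 0.05, 1 member was higher (Rb1) and 0 were lower, against 2.25% of tested probe sets higher and 1.28% lower. The genotypes did not overlap for 4 members, all higher in the mutants (Rb1, E2f7, E2f8 and Wee1), against 5.17% of tested probe sets not overlapping on the higher side and 3.38% on the lower side, where no member lay. The adjusted p was 0.999 for every member.

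**Figure D1:**
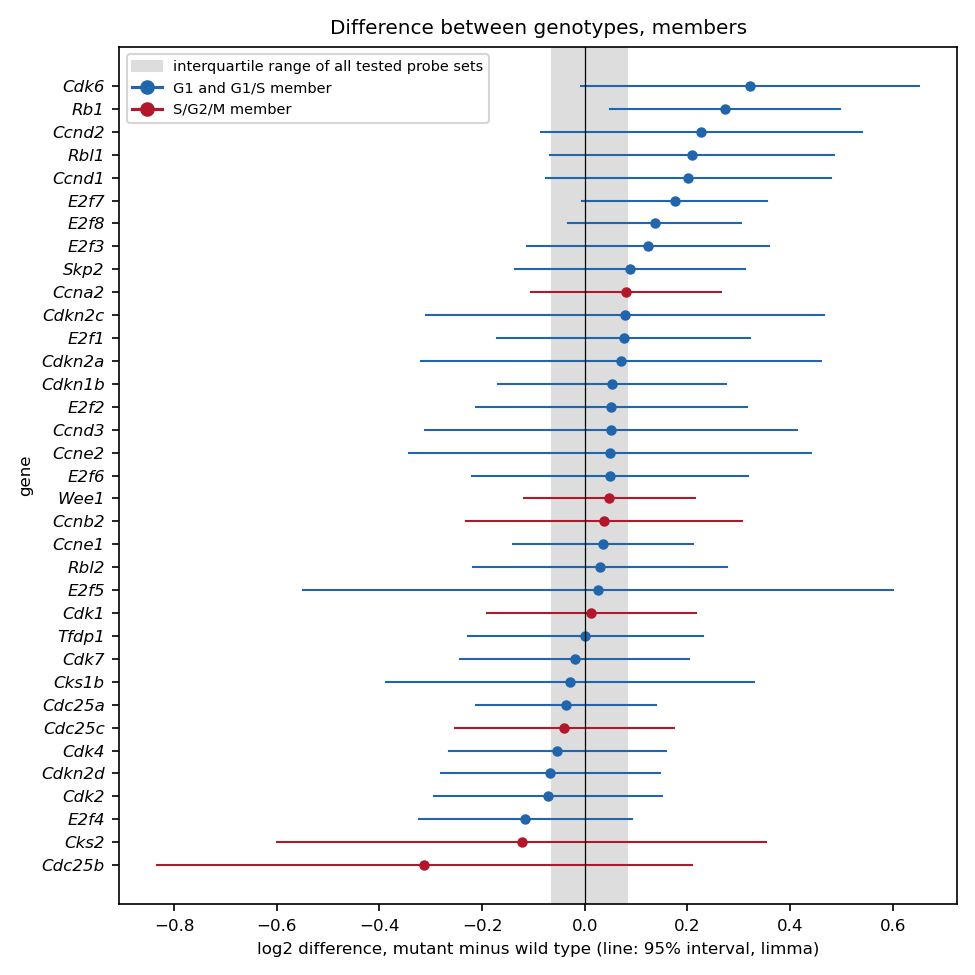
Log2 difference between genotypes for the 35 measured members (x axis, mutant minus wild type; points are estimates and lines the 95% intervals from limma), ordered by size. The intervals of 34 members span zero, that of Rb1 runs from 0.050 to 0.50, and the grey band is the interquartile range of all tested probe sets, −0.064 to 0.083.

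The G1 and G1/S members numbered 28, of which 21 were higher and 7 lower in the mutants, with a median difference of 0.051. The split was 15 and 13 without mutant 3, and 16 and 12 without wild type 1. It was 22 and 6 without the library labelled mutant 1 (median 0.11) and 21 and 7 without mutant 2 (median 0.089). Among the G1 cyclins, which sense growth signals and open the cycle, all 5 read higher on average, by 0.036 (Ccne1) to 0.23 (Ccnd2), and none passed the test. Without mutant 3, 3 of the 5 read higher and 2 lower, while all 5 read higher without any other single library. Their median was 0.051 over all arrays and 0.19 without the library labelled mutant 1. Ccnd2, a D-type cyclin, read 8.23, 8.68 and 8.49 in wild types 1 to 3, 8.69 in the library labelled mutant 1, and 8.54 and 8.83 in mutants 2 and 3. Wild type 1 was the lowest and wild type 2 lay above mutant 2, so the groups overlapped (difference 0.23, SE 0.13). Ccnd1, the D-type cyclin most tied to growth factor signals, read 7.68, 7.95 and 8.08 in the wild types and 7.997, 8.17 and 8.16 in the mutants in the same order (difference 0.20, SE 0.12). Wild type 1 was again the lowest. Without wild type 1 the difference of Ccnd1 was 0.089 and that of Ccnd2 was 0.11. Ccnd3, the D-type cyclin of blood lineages, differed by 0.051 (SE 0.16). It was lowest in mutant 2, at 8.91, and highest in mutant 3, at 9.54, with the wild types between, at 9.07 to 9.26. The cyclin E genes, which drive entry into S phase with Cdk2, differed by 0.036 (Ccne1, SE 0.075) and 0.049 (Ccne2, SE 0.17). Ccne1 lay between 9.03 and 9.16 on all arrays, while Ccne2 read 7.71 to 7.76 in the wild types and 7.51, 7.67 and 8.20 in the mutants in order. The mutant libraries thus bracketed the wild types for both Ccnd3 and Ccne2.

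**Figure D2:**
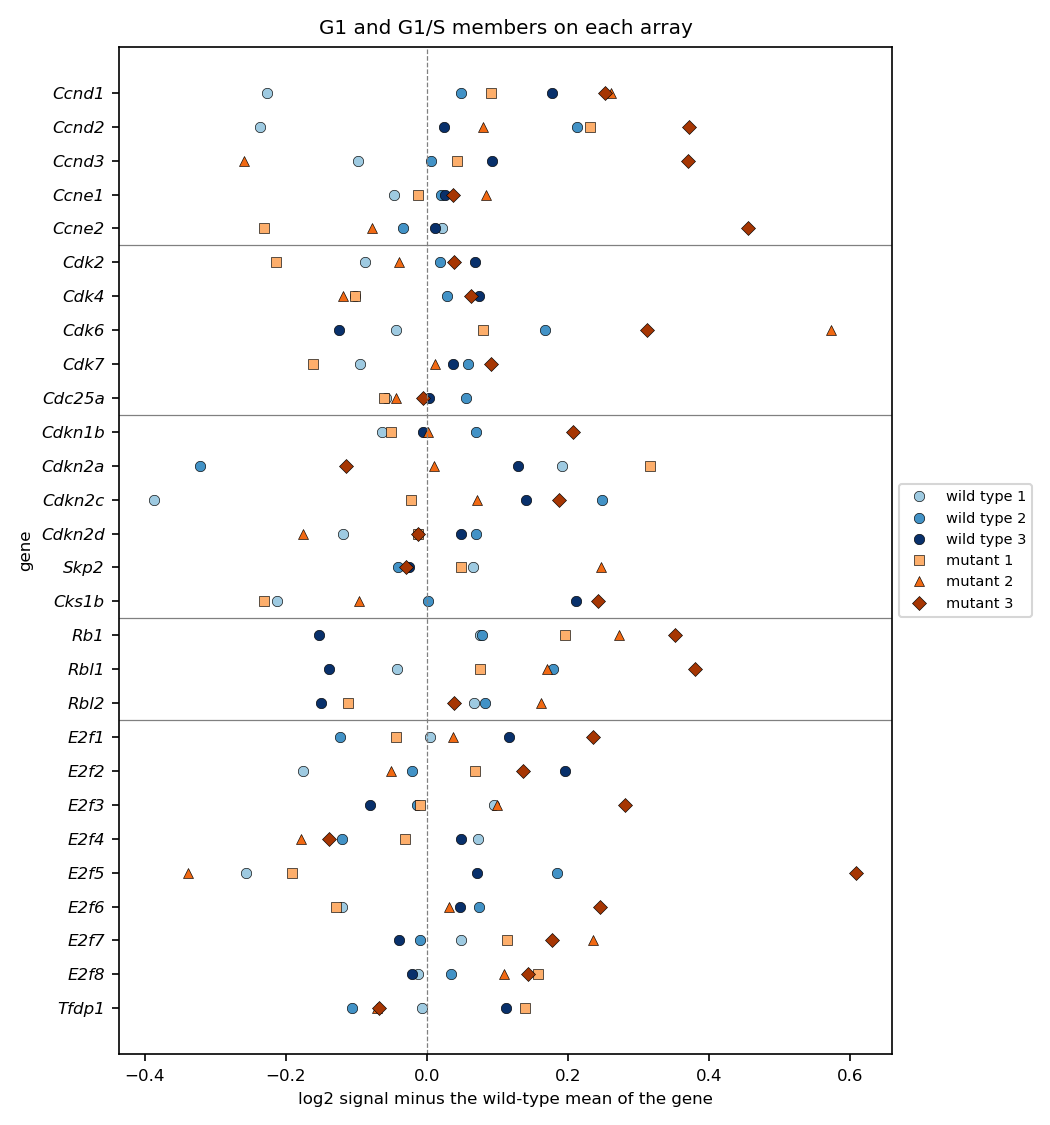
Log2 signal minus the wild-type mean of each gene (x axis) for the 28 G1 and G1/S members (rows, grouped by role from cyclins at the top to E2F and DP factors at the bottom), 1 point per array. Mutant 3 (dark diamonds) is the highest array for 12 of the 28 and the lowest for none, and the genotypes separate only for Rb1, E2f7 and E2f8.

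Of the G1 kinases and activators, Cdk6 had the largest difference on the higher side of the whole set. Cdk6, the partner of D-type cyclins prominent in blood cells, read 6.92, 7.13 and 6.84 in wild types 1 to 3. It read 7.04 in the library labelled mutant 1, below wild type 2, and 7.53 and 7.27 in mutants 2 and 3. The level was 1.25-fold higher in the mutants (log2 difference 0.32, SE 0.14, 95% interval −0.0073 to 0.65; limma adjusted p = 0.999). The difference was 0.44 without the library labelled mutant 1 and 0.20 without mutant 2, the array in which Cdk6 was highest. Mutant 2 also had high mesenchyme markers (list median 0.36) and the lowest primitive erythroid markers (−0.90). The part of these in the Cdk6 value was not tested. Cdk4, the other D-type cyclin kinase, went the other way, by −0.053 (SE 0.090). Cdk2, the kinase of cyclin E and cyclin A, read 9.34, 9.45 and 9.495 in the wild types and 9.21, 9.39 and 9.47 in the mutants (difference −0.071, SE 0.095). The library labelled mutant 1 was the lowest and the other mutants lay within the wild-type range. Cdk7, the kinase that activates other CDKs in all phases and is counted here with G1, read 8.48, 8.63 and 8.61 in the wild types and 8.41, 8.58 and 8.66 in the mutants (difference −0.020, SE 0.095), and its dimmer probe set differed by 0.042. Cdc25a, the phosphatase that activates Cdk2, differed by −0.036 (SE 0.075).

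Among the members, the inhibitors that hold CDKs back, and the pair that clears one of them, showed no difference beyond the spread between arrays. Outside the set, the inhibitor Cdkn1c (difference 0.28) and a probe set shared by Cdkn1a and another gene (0.51) differed more, and are described further below. All 6 of these members lay within 0.1 of zero on the log2 scale, 4 higher and 2 lower. The split was 3 and 3 without mutant 3, wild type 1 or wild type 2, and 5 and 1 without mutant 2 or wild type 3. Skp2, the F-box protein that marks p27 (the product of Cdkn1b) for destruction, read 9.55, 9.44 and 9.45 in the wild types and 9.53, 9.73 and 9.45 in the mutants, with mutant 2 alone above the others (difference 0.088, SE 0.096). Its cofactor Cks1b differed by −0.028 (SE 0.15) and spanned 9.10 to 9.57, with wild type 3 and mutant 3 both at the top. Cdkn1b differed by 0.053 (SE 0.095), and by 0.16 at its dimmer probe set. Cdkn2d, an inhibitor of Cdk4 and Cdk6, read 6.97, 7.16 and 7.14 in the wild types and 7.08, 6.91 and 7.08 in the mutants (difference −0.067, SE 0.092), with overlapping groups. The related Cdkn2c differed by 0.079 (SE 0.17), and Cdkn2a, the locus of p16 and ARF, by 0.071 (SE 0.17). Cdkn2a was lowest in wild type 2, at 5.41, and highest in the library labelled mutant 1, at 6.05.

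Pocket proteins, which bind E2F factors and silence their targets, were higher for 3 of 3 members, with a median difference of 0.21, that of Rbl1. The median was 0.12 without mutant 3 and 0.14 without wild type 3. It was 0.28 without the library labelled mutant 1 and 0.30 without wild type 2. Rb1, the retinoblastoma protein gene, read 5.87, 5.87 and 5.64 in wild types 1 to 3, 5.99 in the library labelled mutant 1, and 6.07 and 6.15 in mutants 2 and 3. Every mutant library lay above every wild type, although the step from the highest wild type to the lowest mutant was smaller than the spread among the wild types. The wild types averaged 5.79 ± 0.13 (SD, n = 3) and the mutants 6.07 ± 0.078 (SD, n = 3), which is a level 1.21-fold higher (log2 difference 0.27, SE 0.096). The unadjusted limma p was 0.0230 and the adjusted p 0.999. The unadjusted p missed 0.05 without wild type 3 (0.0774), without mutant 2 (0.0530) and without mutant 3 (0.0599), and with the Xist level as a covariate (0.0535). Rbl1 (p107), whose own transcript is under E2F control, read 7.49, 7.71 and 7.39 in the wild types and 7.60, 7.70 and 7.91 in the mutants (difference 0.21, SE 0.12). Wild type 2 lay above both the library labelled mutant 1 and mutant 2. Rbl2 (p130), the pocket protein of resting cells, differed by 0.030 (SE 0.11), and by −0.045 without wild type 3 and −0.036 without mutant 2.

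The E2F and DP factors were higher for 8 of 9 members, with a median of 0.051, and the atypical pair separated the genotypes. Without mutant 3 the count was 5 of 9 (median 0.0089), and without wild type 1 it was 4 of 9 (median −0.0026). It was 7 of 9 without the library labelled mutant 1 (median 0.14) and 8 of 9 without mutant 2 (median 0.10). E2f7 and E2f8 encode repressors that bind DNA without a DP partner and shut off E2F targets late in S phase. E2f7 read 7.54, 7.48 and 7.45 in wild types 1 to 3, 7.60 in the library labelled mutant 1, and 7.72 and 7.67 in mutants 2 and 3. E2f8 read 7.41, 7.45 and 7.40 in the wild types, 7.58 in the library labelled mutant 1, and 7.53 and 7.56 in mutants 2 and 3. For both genes every mutant library lay above every wild type, and the libraries within a genotype were close together. For E2f7, however, the step from the highest wild type to the lowest mutant was smaller than the range within either genotype. E2f7 was 1.13-fold higher (log2 difference 0.18, SE 0.077, 95% interval −0.0045 to 0.36; limma adjusted p = 0.999). E2f8 was 1.10-fold higher (0.14, SE 0.072, 95% interval −0.032 to 0.31; limma adjusted p = 0.999). E2f8, like Wee1, Ccnd1 and Ccne1, lies on chromosome 7, as does Tnrc6a, and the part of linkage to the mutant allele was not tested. The difference ran from 0.15 to 0.21 for E2f7 and from 0.13 to 0.15 for E2f8 when 1 library was left out.

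**Figure D3:**
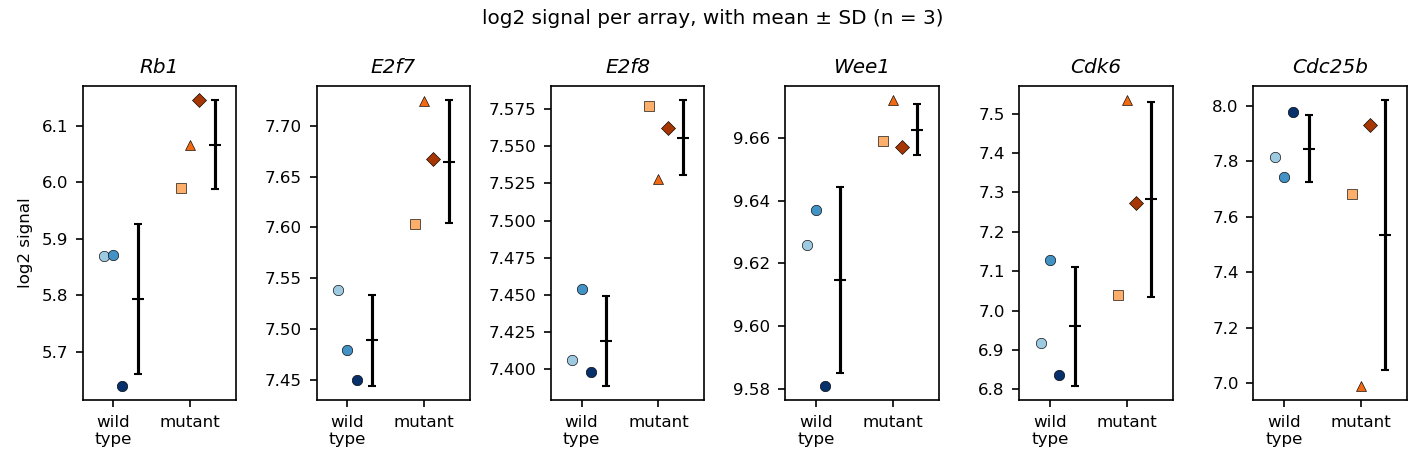
Log2 signal (y axis, a separate scale in each panel) of 6 members on each array, by genotype, with the mean ± SD (n = 3) in black; wild types 1 to 3 are light to dark blue circles, and mutants 1, 2 and 3 are a square, a triangle and a diamond. The groups do not overlap for Rb1, E2f7, E2f8 and Wee1 and overlap for Cdk6 and Cdc25b, and Cdc25b is low in mutant 2 alone, at 6.99.

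The other E2F genes did not separate the genotypes. The activators E2f1, E2f2 and E2f3, which start the S phase programme, differed by 0.076 (SE 0.11), 0.051 (SE 0.11) and 0.12 (SE 0.10), and the dimmer E2f3 probe set by 0.013. E2f4, the main repressor partner of pocket proteins, was the only lower member of this class. It read 8.82, 8.63 and 8.79 in the wild types and 8.71, 8.57 and 8.61 in the mutants (difference −0.12, SE 0.089), where wild type 2 lay among the mutants. E2f5, its close relative, had the largest SD within a genotype of all 35 members, 0.51 in the mutants: the mutants read 6.58, 6.44 and 7.38, and the wild types 6.52, 6.96 and 6.84, a difference of 0.026 (SE 0.25). E2f6, a repressor that acts without pocket proteins, differed by 0.049 (SE 0.12). Tfdp1, the DP partner of typical E2F factors, read 9.62, 9.52 and 9.73 in the wild types and 9.76, 9.55 and 9.56 in the mutants (difference 0.0008, SE 0.098), and its other probe set differed by −0.014.

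The S/G2/M members gave 7 measured genes, 4 higher and 3 lower in the mutants, with a median difference of 0.013. The split was 2 higher and 5 lower without mutant 3 or without wild type 1. It was 5 and 2 without mutant 2 or wild type 2. Without the library labelled mutant 1 it stayed at 4 and 3 (median 0.050). The transcripts of the mitotic engine itself were close between genotypes. Ccna2, the cyclin of S phase and G2, read 9.95, 10.02 and 9.97 in the wild types and 10.08, 9.97 and 10.13 in the mutants (difference 0.081, SE 0.080, 95% interval −0.11 to 0.27). Ccnb2, a cyclin B, differed by 0.037 (SE 0.12) and Cdk1, the kinase of mitotic entry, by 0.013 (SE 0.087). Cdk1 spanned 9.89 to 10.12 over all arrays, with the library labelled mutant 1 the lowest and mutant 3 the highest. Cks2, a small subunit of the mitotic CDK complex, read 7.86, 8.03 and 8.26 in wild types 1 to 3 and 7.70, 7.68 and 8.40 in the mutants (difference −0.12, SE 0.20). Mutant 3 was above all wild types and the other mutants were below them, and the 2 further probe sets of Cks2 were lower in the mutants too, at −0.16 and −0.20. Probe sets annotated to Cks2 may share sequence with copies of the gene, so its level is uncertain.

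**Figure D4:**
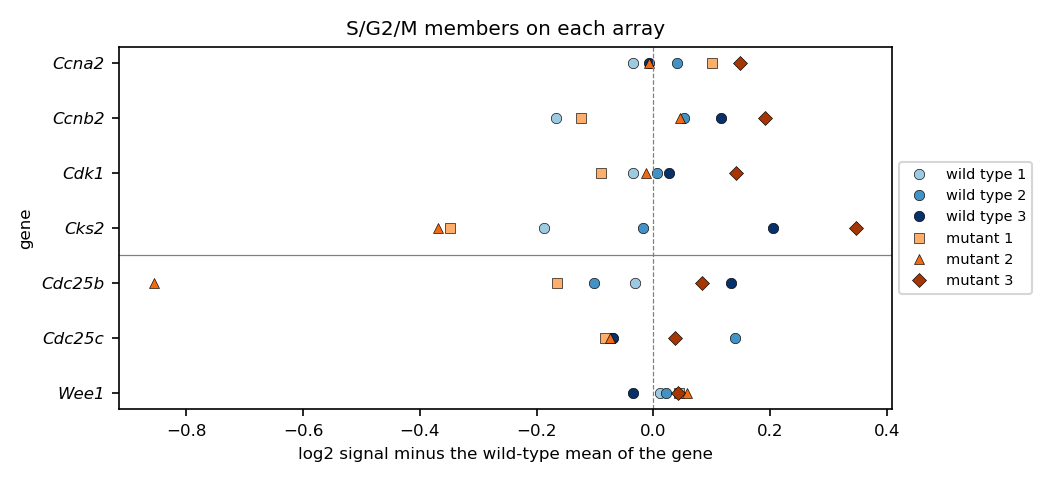
Log2 signal minus the wild-type mean of each gene (x axis) for the 7 measured S/G2/M members (rows; mitotic cyclins, Cdk1 and Cks2 above the line, regulators of Cdk1 phosphorylation below), 1 point per array. Mutant 3 (dark diamonds) is highest for 4 of the 7, and mutant 2 (orange triangle) stands far below all other arrays for Cdc25b.

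Among the enzymes that set the phosphorylation of Cdk1, Cdc25b had the largest difference on the lower side of the whole set and rested on 1 array. Cdc25b, a phosphatase that activates Cdk1 at mitotic entry, read 7.81, 7.74 and 7.98 in wild types 1 to 3 and 7.68, 6.99 and 7.93 in the mutant libraries in the same order, with mutant 2 far below all others. The difference was −0.31 (SE 0.22) over all arrays and −0.041 without mutant 2. Mutant 2 was also the array with the lowest primitive erythroid markers. Of 12 such markers 9 had a single-symbol probe set, all 9 were lowest in mutant 2, and their median there was −0.90 relative to the wild-type mean, against −0.078 and −0.15 in the other mutant libraries. Their summed signal on the log2 scale ran from 14.6 to 14.7 in wild type and from 14.2 to 14.6 in the mutants. None of the 9 fell to the dim filter. By genotype all 9 read lower in the mutants, with a median difference of −0.34 (−0.075 without mutant 2). The groups of 4 markers did not overlap, against 3.38% of tested probe sets on the lower side, and the lowest limma adjusted p was 0.999. The part of these shifts, and of the trophoblast and mesenchyme markers of mutant 2, in the Cdc25b value was not tested. Cdc25c, the related phosphatase of G2, differed by −0.040 (SE 0.091). Wee1, the kinase that restrains Cdk1, read 9.63, 9.64 and 9.58 in the wild types and 9.66, 9.67 and 9.66 in the mutants. The groups did not overlap, but the difference was 0.048 (SE 0.071; limma adjusted p = 0.999), smaller than its SE.

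No gene in the 3 further lists of the pathway passed the adjusted test either. Of 20 tested regulators among 23 listed, 13 were higher and 7 lower with a median of 0.059. At an unadjusted limma p under 0.05, 1 of the 20 was higher and 0 were lower, against 2.25% of tested probe sets higher and 1.28% lower. The gene called was Cdkn1c, an imprinted CDK inhibitor (p57). It read 10.69, 10.77 and 10.46 in the wild types and 10.76, 11.04 and 10.97 in the mutants (difference 0.28, SE 0.12, limma adjusted p = 0.999). Wild type 2 lay above the library labelled mutant 1. Cdkn1c also lies on chromosome 7, as does Tnrc6a, and the part of linkage to the mutant allele was not tested. Fzr1, an activator of the anaphase-promoting complex in G1, differed by 0.17 (SE 0.091). The groups did not overlap for 2 of the 20, Fzr1 and Lin9 (0.0905, SE 0.075), both higher, against 5.17% of tested probe sets on that side. The DNA replication genes, which are E2F targets for the most part, were lower for 24 of 32 tested, with a median of −0.034. This direction depended on the libraries included: the median was 0.0122 without mutant 2 (19 higher and 13 lower), 0.0015 without the library labelled mutant 1 (16 and 16) and −0.097 without mutant 3 (4 and 28). Orc2 and Orc1, subunits of the origin recognition complex, had the lowest p and differed by −0.21 (SE 0.15) and −0.13 (SE 0.12). The mitosis genes were higher for 21 of 32 tested, with a median of 0.024. The median was −0.023 without mutant 3 (13 higher and 19 lower), 0.0034 without wild type 3 (17 and 15) and −0.0044 with array weights (15 and 17). Pttg1, the securin that guards sister chromatids, differed by 0.29 (SE 0.16), but wild type 3 was its highest array, at 7.72. Prc1, a spindle midzone protein, differed by 0.14 (SE 0.091), with overlapping groups. Prc1, and Mki67 described further below, are on chromosome 7 too, and the part of linkage was not tested for them either.

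The mutant libraries were not alike. Mutant 3 had the highest signal for 16 of the 35 members and the lowest for 0. The median deviation of the G1 and G1/S members from the wild-type mean was −0.052, 0.031 and 0.042 in wild types 1 to 3 and −0.013, 0.021 and 0.18 in the mutants, of which the first is the library labelled mutant 1. For the S/G2/M members these medians were −0.034, 0.023 and 0.027 in the wild types and −0.089, −0.012 and 0.14 in the mutants in the same order. Without mutant 3 the median difference between genotypes was 0.017 for the G1 and G1/S members and −0.051 for the S/G2/M members, against 0.051 and 0.013 with it. Without the library labelled mutant 1 these medians were 0.11 and 0.050. Among the replication genes, mutant 3 was the highest array for 19 of 32, and the library labelled mutant 1 and mutant 2 were the lowest for 12 and 13 of them. Their median was −0.063, −0.11 and 0.15 in the 3 mutant libraries and −0.020, −0.016 and 0.052 in the wild types. Mutant 3 was also highest for 18 of 32 mitosis genes. The same array had the highest endothelial markers, with a list median of 0.46 against −0.11 to 0.13 in wild type and 0.070 and 0.24 in the other mutant libraries, and the lowest visceral endoderm markers, at −0.13. Of 10 endothelial markers, 9 were highest in mutant 3, and their summed log2 signal ran from 11.1 to 11.4 in wild type and from 11.3 to 11.7 in the mutants. By genotype all 10 read higher in the mutants, with a median difference of 0.27, or 0.14 without mutant 3. For 3 of them the unadjusted limma p was under 0.05, against 2.25% of tested probe sets on the higher side. The groups did not overlap for 4, against 5.17%, and the lowest limma adjusted p was 0.999. Over all 6 arrays the median differences of the endothelial and erythroid lists were larger in size than that of any cell cycle list here, whose largest was the 0.21 of the pocket proteins. Their part in the cell cycle values was not tested.

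**Figure D5:**
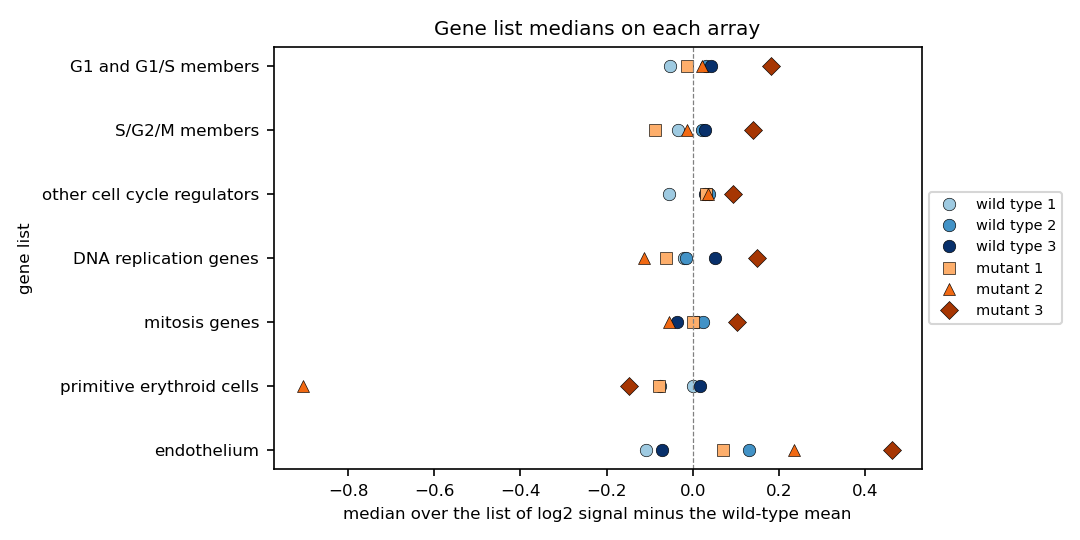
Median over each gene list (rows) of the log2 signal minus the wild-type mean of the gene (x axis), 1 point per array. Mutant 3 (dark diamonds) is highest in the 5 cell cycle lists and in the endothelium list, while mutant 2 (orange triangle) is far below the other arrays in the primitive erythroid list, at −0.90.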

How the data were processed

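Per the labels' protocols, Trizol was used to extract RNA from single yolk sacs and biotinylated cRNA was made for Affymetrix arrays. The deposited table holds the authors' processed log2 signals of 35557 probe sets; MAS5 is the only tool in the submitters' processing notes, and the background step, probe summary, normalization and build have no source here, so their effect on differences between arrays is unknown. The log2 scale was read from the values. GEO's platform annotation gave 21789 probe sets 1 symbol, 1621 several and 12147 none. Of those with a symbol, the 16387 whose mean signal reached the 30th percentile (4.29) entered the test with limma 3.58.1 in R 4.3.3 (no block, 4 residual and 3.47 prior degrees of freedom; median SE 0.10) and Benjamini-Hochberg adjustment at 0.05. The script was tested on simulated data. Alternatives changed the normalization, the filter, the variance model, array weights, the probe set rule, the covariates or block and the libraries included. The members, role classes, gene lists, tests and alternatives were chosen with earlier results of these data known. Per-array values are given for members with an unadjusted p under 0.05, with groups that do not overlap, with the largest difference on each side of a role class, or with probe sets of opposite sign, and for some others chosen after their values were seen; the 2 genes with the lowest p are named in each further list.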

Additional observations from a re-analysis of the deposited data

How the results depend on the processing

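Of 18 alternatives, none called a member: the lowest adjusted p over 629 member values was 0.553, and the differences of 16 members, among them Cdk6, Rb1, Rbl1, E2f7, E2f8, Ccnd1, Ccnd2, Cdc25b and Wee1, kept their sign in all of them. The signs of 19 members turned in 47 values, and the cause was not tested. When 1 library was left out the log2 differences of these ran from −0.11 to 0.20 for Cdkn2c, −0.037 to 0.15 for E2f2, −0.27 to 0.21 for E2f5, −0.0496 to 0.14 for E2f6, −0.069 to 0.057 for Tfdp1, −0.046 to 0.12 for Ccnb2, −0.051 to 0.064 for Cdk1, −0.075 to 0.051 for Cdk7, −0.0905 to 0.17 for Cdkn2a, −0.079 to 0.0296 for Cdc25c, −0.045 to 0.10 for Rbl2, −0.16 to 0.077 for Cks1b, −0.13 to 0.0001 for Cdk2, −0.36 to 0.0004 for Cks2, −0.11 to 0.21 for Ccnd3, −0.15 to 0.19 for Ccne2, −0.024 to 0.10 for Cdkn1b, −0.0031 to 0.14 for E2f1. With array weights the sign turned for Ccnd3 (−0.038), Ccne2 (−0.071), E2f5 (−0.11), Cdk1 (−0.018), with the Xist level as a covariate for Ccnd3 (−0.0039), Cdk7 (0.0097), E2f5 (−0.0052), Tfdp1 (−0.015), Cks1b (0.0024), and with probe sets averaged per gene for Cdk7 (0.011), Tfdp1 (−0.0065). With both wild type 2 and the library labelled mutant 1 left out it turned for Cdk2 (0.0098), Cdk7 (0.0802), Cdkn2a (−0.21), Cdc25a (0.0041), Tfdp1 (−0.12), Cks1b (0.074), Cdc25c (0.051), and limma called 1 probe set, that of Tnrc6a (log2 difference −3.08, adjusted p = 0.00285, against 0.108 to 0.9998 in the other alternatives), which had to widen since Tnrc6a itself put the library labelled mutant 1 in doubt. The probe sets at an unadjusted p under 0.05 numbered 579, but 1086 with array weights, 1173 without those 2 libraries, and 395 to 1372 when 1 library was left out. The median of the other regulators, 0.059, was 0.0083 when mutant 3 was left out and 0.015 when wild type 1 was, and ran up to 0.076 over the other single leave-outs (0.077 with both doubted libraries left out). Replicates numbered alike did not deviate together in all pairs (r = 0.45, 0.15 and −0.11), so the numbers were not taken as pairs. With the replicate block no member passed the adjusted threshold and 727 probe sets had an unadjusted p under 0.05, and the unadjusted p of Cdk6 became 0.0195. The methods' t-test gave 627 such probe sets and 0 after adjustment, with unadjusted p of 0.00401 for E2f8, 0.0158 for E2f7 and 0.0374 for Rb1. Signal over background is unknown, and the median SE of 0.10 limits what 6 arrays can resolve.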

Other observations

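One probe set carries 2 symbols, Cdkn1a (the p53-responsive CDK inhibitor p21) and 4930567H12Rik, and cannot be assigned to either. It was chosen after its values were seen. It read 6.06, 6.18 and 6.08 in wild types 1 to 3, 6.64 in the library labelled mutant 1, and 6.92 and 6.31 in mutants 2 and 3, so the groups did not overlap (log2 difference 0.51). Pcna, the sliding clamp of replication, read 10.59, 10.49 and 10.65 in the wild types, 10.29 and 10.31 in the library labelled mutant 1 and mutant 2, and 10.88 in mutant 3, so the mutant libraries lay on both sides of the wild types (difference −0.079, SE 0.16). Top2a, the topoisomerase of dividing cells, was highest in mutant 3, at 10.31, and spanned 9.82 to 10.11 in wild type (difference 0.029, SE 0.14). Mki67, the proliferation marker Ki-67, spanned 9.99 to 10.14 in wild type and 9.99 to 10.23 in the mutants (difference 0.075, SE 0.095). Ccng2, a cyclin induced in quiescent cells, read 6.98 in mutant 3 and 5.69 to 6.03 on all other arrays (difference 0.40, SE 0.30).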
